A study of Bos indicus and Bos taurus with 17 samples.

Results

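Gene expression in cells captured from the milk of Jersey cows as epithelial cells was compared between late lactation (day 250 in milk, D250) and mid lactation (day 90, D90). The values were FPKM, a read count divided by transcript length and by sequencing depth, with 1 value for each group of breed and day. A gene entered the comparison if it had a name and reached 1 FPKM on at least 1 of these days. Of 21631 distinct names, 10955 met this rule. A ratio could be taken for 10901, since the other 54 had a listed value of 0 on 1 of the days. Jersey is a dairy breed of high milk fat. The labels named 2 Jersey samples at D90, one from a cow in lactation 2 and one from a cow in lactation 3, and 3 Jersey samples at D250, all in lactation 2. They gave July for D90 and December for D250, so that day in milk, season and lactation number cannot be told apart. The study's own account of the lactation number and of the number of libraries differs from the labels, so which libraries stand behind the D90 value is not certain. Nothing in the labels says whether a cow was sampled on more than 1 day. According to the methods of the study, the cells were captured from fresh milk with magnetic beads carrying an antibody against keratin 18, and RNA selected for poly-A tails was sequenced with paired reads. Jersey cows at D15 and Kashmiri cows, a local hill breed, on the same 3 days are given beside the comparison. By the labels, 2 Jersey samples at D15 were in lactation 2 and 1 in lactation 3. Kashmiri samples in lactations 2 and 3 numbered 1 and 2 at D15, 3 and 0 at D90, and 1 and 2 at D250. With 1 value per group there was no spread between cows, and no test was possible. The reads behind each value are unknown, so no interval is given. "Higher" and "lower" therefore describe the ratio of 2 group values (D250 over D90) and nothing more.

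The secretory cells of the udder are luminal epithelial cells. They join each other by tight junctions, take up glucose, amino acids, minerals and fatty acids on the blood side, and release casein micelles, lactose and fat droplets wrapped in membrane on the milk side, under the control of prolactin and growth hormone acting through STAT5. After mid lactation the daily yield declines as secretory cells are lost or become less active, and leukocytes, above all neutrophils and macrophages, enter milk in varying numbers. Cells recovered from milk can therefore hold shed epithelial cells and leukocytes side by side.

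The label was checked against markers first. KRT18, the keratin used for the capture, had 1.59 at D90 and 4.51 FPKM at D250. The luminal keratin KRT19 had 38.2 FPKM at D90 against 835 at D250. The leukocyte genes LSP1 and ITGB2, which the study used as markers of other cells in milk, had 170.0 and 179 FPKM at D90 and 149 and 164 FPKM at D250. Over whole marker lists, the summed level of the 12 keratin entries found was 71.4 at D90 and 1019 FPKM at D250, and that of the 46 entries found for epithelial junction and identity genes was 149 FPKM at D90 against 822 at D250. The 24 neutrophil entries summed to 9296 at D90 and 24536 FPKM at D250, with MMP8 listed at 0 in both groups. The 26 macrophage and dendritic cell entries summed to 6491 FPKM at D90 against 7316 at D250. In both Jersey groups the neutrophil and macrophage lists thus summed to far more FPKM than the keratin and junction lists. Genes of milk secretion summed to more than the keratins. The milk fat globule list had 1038 at D90 and 3925 FPKM at D250. Not all of that sum is particular to epithelial cells, since PLIN2, which macrophages also use, had 535 and 1051 FPKM of it. The milk protein list had 5044 FPKM at D90 against 5140.1 at D250, with several genes listed at 0 in one of the groups. Epithelial and leukocyte markers were therefore both present, and the samples are called milk cells here. UXT, a gene the study normalised other measurements to, was nearly level, with 52.3 at D90 and 53.2 FPKM at D250. The 5 red blood cell genes found, among them HBB at 0 in both groups, summed to 0.597 FPKM at D90 against 0.136 at D250. Fewer cells of a type and less RNA per cell cannot be told apart in such bulk values, and the part of cell composition in the results that follow was not tested.

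More genes were higher than lower at D250. Of the 10901 genes, 2318 (21.3%) were at least 2-fold higher and 678 (6.22%) at least 2-fold lower, and at 4-fold the numbers were 826 (7.58%) and 95 (0.871%). The median log2 ratio (D250 over D90, no pseudocount) was 0.18, the quartiles were -0.32 and 0.85, and 6483 genes (59.5%) were higher at any size. This balance depended on the scaling. The FPKM of all entries summed to 645410 at D90 and 900667 at D250. With both groups rescaled to the same sum without the milk protein genes, every log2 ratio was lower by 0.48, and 1368 genes were 2-fold higher and 1836 lower. With the same upper quartile every ratio was lower by 0.30, with 1664 genes higher and 1234 lower. A list or gene is therefore best read against the median of 0.18, and a log2 ratio between 0 and 0.48 turns negative under the first of these scalings. The counts of a list are best read against the 21.3% higher and 6.22% lower of all genes.

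The ratio also varied with the length of the gene. Of 8854 gene symbols, 8238 (93.0%) were matched to a gene span in RefSeq, taken from the assembly NIAB-ARS_B.indTharparkar_mat_pri_1.0. These were divided into 5 classes of equal size by span. In the class of shortest span, 13.2% were at least 2-fold higher and 9.95% lower, and the median log2 ratio was -0.12. In the class of longest span these values were 32.0%, 3.70% and 0.56. In Kashmiri cattle the medians of the same classes were -0.14 and 0.32. The part of gene span in the results that follow was not tested. Entries without a gene name, too, took a larger share of the FPKM sum at D250, 8.57% against 4.26% at D90. In the plot of shares by level, the class under a mean of 1 FPKM stands apart because a gene there had to pass 1 FPKM in a single group.

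**Figure D1:**
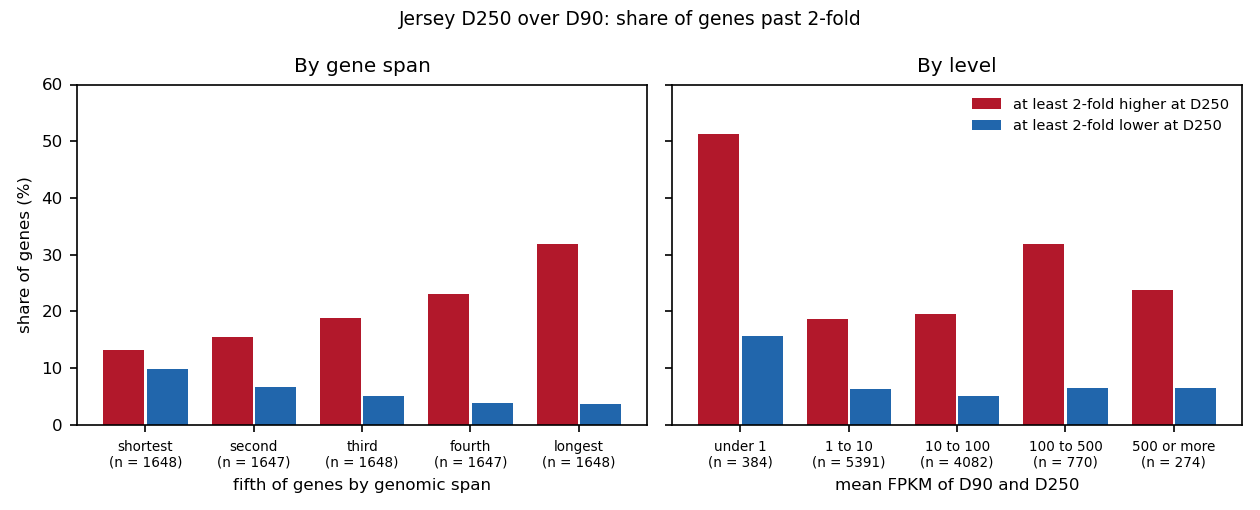
Share of genes (%) at least 2-fold higher (red) or lower (blue) at D250 than at D90 in Jersey cattle, by class of gene span and by mean FPKM of both groups, with the number of genes under each pair of bars. The share of higher genes goes from 13.2% in the shortest to 32.0% in the longest class, while that of lower genes goes from 9.95% to 3.70%.

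Genes of luminal epithelial cells were higher at D250. Of the 33 junction and identity genes with a ratio, 25 (75.8%) were at least 2-fold higher and 1 was lower, with a median log2 ratio of 1.99, beside 21.3%, 6.22% and 0.18 over all genes. Of these higher genes, 10 had less than 1 FPKM at D90 and entered only through their level at D250. Of the 23 members that reached 1 FPKM on both days, 15 were higher and 1 was lower, with a median of 1.62, beside 17.1%, 5.12% and 0.14 over the 9738 genes that met this limit. ELF5, the transcription factor that directs alveolar cells to milk secretion, had 12.6 at D90 and 349 FPKM at D250 (log2 ratio 4.79), a 27.7-fold difference. At D15 it had 338 FPKM, so that D90 was the low point of the 3 days. SPINT2, an inhibitor of membrane-bound serine proteases of epithelia, had 24.8 FPKM at D90 against 179.7 at D250 (log2 ratio 2.86). Some of the largest ratios rested on low levels. CLDN8, a claudin of tight junctions, had 0.142 at D90 and 6.91 FPKM at D250 (log2 ratio 5.6), and OVOL2, a repressor of mesenchymal genes, had 0.249 FPKM at D90 against 4.94 at D250 (log2 ratio 4.31). AP1M2, which sorts proteins to the basolateral membrane, had 1.14 at D90 and 18.3 FPKM at D250 (log2 ratio 4.0). LAMB3, a laminin chain of the basement membrane, had 8.17 FPKM at D90 against 60.5 at D250 (log2 ratio 2.89). The claudins did not all go one way: CLDN3 had a log2 ratio of 1.62, while CLDN1, the gene of the list with the lowest ratio, had 9.61 at D90 and 2.01 FPKM at D250 (log2 ratio -2.26).

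The keratins went both ways. KRT19, of luminal cells, was 21.9-fold higher at D250, with 1687 FPKM at D15. KRT15, found in luminal progenitor cells, had 3.54 FPKM at D90 against 61.4 at D250 (log2 ratio 4.12). KRT7, a keratin of simple glandular epithelium, had 13.3 at D90 and 88.6 FPKM at D250 (log2 ratio 2.74), and KRT24 had 0.155 FPKM at D90 against 5.84 at D250 (log2 ratio 5.23). On the other side, KRT14, the keratin of basal and myoepithelial cells, had 1.26 at D90 and 0.0528 FPKM at D250 (log2 ratio -4.57), and the entry that holds KRT17 had 2.62 FPKM at D90 against 1.07 at D250. In all, 7 of 11 keratin entries were 2-fold higher and 2 lower. Among the 6 basal and myoepithelial genes with a ratio, 2 were higher and 2 lower, and ACTA2, smooth muscle actin, had 3.70 at D90 and 7.79 FPKM at D250. The plot of both groups shows epithelial genes mostly above the line of equal FPKM, at low to medium levels, and neutrophil genes above it at high levels.

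**Figure D2:**
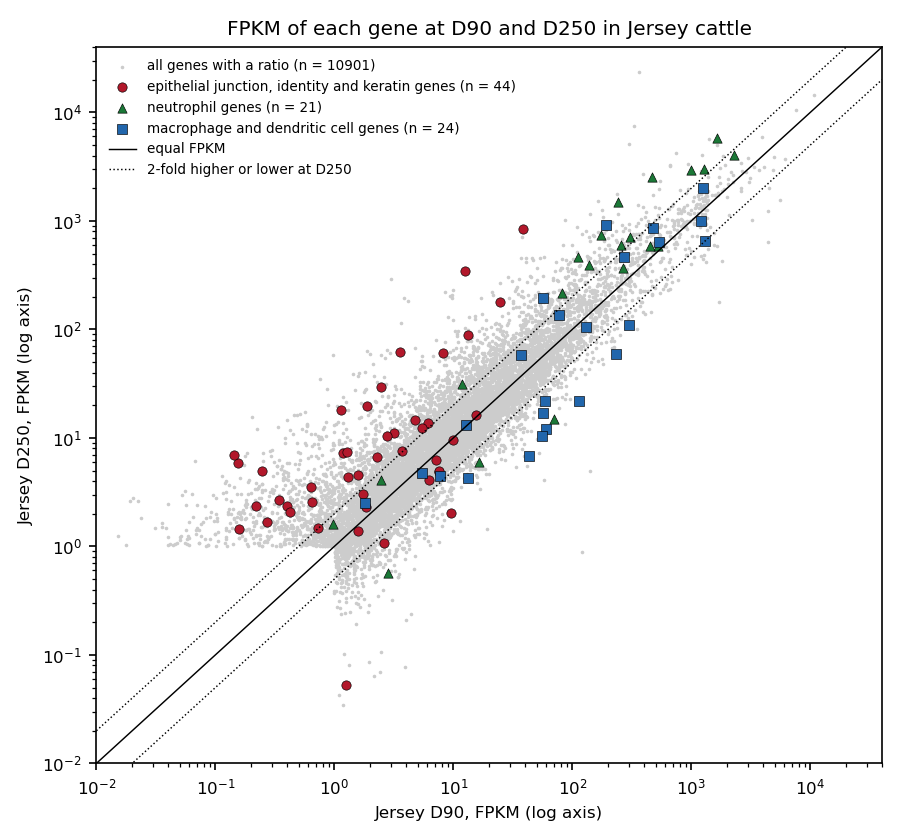
FPKM of each gene in Jersey cattle at D90 (horizontal, log axis) and at D250 (vertical, log axis), for 10901 genes (grey) with epithelial (red circles), neutrophil (green triangles) and macrophage or dendritic cell genes (blue squares) marked. Red circles lie mostly above the dotted 2-fold line, with KRT19 and ELF5 highest, and the complement genes C1QA, C1QB and C1QC lie among the blue squares below the lower dotted line.

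Among symbols with at least 1 FPKM in both groups, the highest ratio was that of EFHD1, a calcium-binding protein of mitochondria, with 1.87 FPKM at D90 against 63.0 at D250 (33.7-fold). GP2, a glycoprotein of secretory granule membranes, had 1.98 at D90 and 58.7 FPKM at D250, and GCAT, which breaks down threonine in mitochondria, had 1.42 FPKM at D90 against 39.1 at D250. S100B, a calcium-binding protein, had 8.44 at D90 and 219.9 FPKM at D250. All 4 were also higher at D15 than at D90, with 58.2 FPKM for EFHD1, 56.3 for GP2, 32.8 for GCAT and 102 for S100B. TFF3, a secreted peptide that protects mucosal surfaces, had 9.29 FPKM at D90 against 203 at D250 (log2 ratio 4.45). AZGP1, a lipid-mobilising glycoprotein of secretions, had 2.79 at D90 and 63.9 FPKM at D250 (log2 ratio 4.52), and CRISP3, a secreted cysteine-rich protein, had 2.09 FPKM at D90 against 47.8 at D250 (log2 ratio 4.51). GSTM3, a glutathione transferase, and MARC1, a mitochondrial reductase, had log2 ratios of 4.56 and 4.35. HSD11B1, which regenerates active cortisol inside cells, had 1.81 at D90 and 40.4 FPKM at D250 (log2 ratio 4.48) and, unlike the genes before it, only 0.497 FPKM at D15.

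Of the milk protein genes, LALBA alone had a value above 0 in both groups. It encodes alpha-lactalbumin, the regulatory part of lactose synthase, and had 297 FPKM at D90 against 5140.1 at D250, but it was listed at 0 at D15 in both breeds, so that no direction is read from it. The other members gave no ratio. The casein genes CSN1S1, CSN2 and CSN3 had 949, 1068 and 653 FPKM at D90 and were listed at 0 at D250. PAEP, the gene of beta-lactoglobulin, had 2076 FPKM at D90 and 0 at D250. A listed 0 need not be an absence of RNA. GAPDH, a glycolytic enzyme that every cell uses, had 0.0328 FPKM at D90 and 0 at D250, and it was listed at 0 in all 3 Kashmiri groups. Across all names, 16 had more than 500 FPKM in one Jersey group and 0 in the other, 11 of them at 0 at D250. Among these were SRGN, the proteoglycan of leukocyte granules (5250.2 FPKM at D90), SDS, serine dehydratase (5469 FPKM), and IL-8, the neutrophil attractant (2108 FPKM). At 0 at D90 stood FTH1, the ferritin heavy chain, with 12092 FPKM at D250, and SPP1, osteopontin, with 3051 FPKM. No direction is read from any of these genes.

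Milk fat is made from fatty acids that the cell builds from acetate or takes up from blood lipoproteins. Of 13 fatty acid synthesis genes, 5 were 2-fold higher and 2 lower, with a median of 0.24 that turned negative with the sum rescaled (4 higher, 5 lower). The higher members included ACSS2, ACACA and FASN, which lead from acetate to palmitate. FASN, fatty acid synthase, had 9.92 at D90 and 228 FPKM at D250 (log2 ratio 4.52) against 188 FPKM at D15. ACACA, acetyl-CoA carboxylase and the first committed step, had 2.22 FPKM at D90 against 13.0 at D250 (log2 ratio 2.55), and ACSS2, which activates acetate, had 16.5 at D90 and 97.2 FPKM at D250 (log2 ratio 2.56). IDH1, a source of NADPH in ruminant udder, had 26.3 FPKM at D90 against 75.01 at D250 (log2 ratio 1.51). The lower members were desaturases. FADS2 had 4.12 at D90 and 1.16 FPKM at D250 (log2 ratio -1.83) and FADS3 had 9.87 FPKM at D90 against 4.57 at D250 (log2 ratio -1.11). ACLY, which supplies acetyl-CoA from citrate and is little used in ruminants, had 17.9 at D90 and 9.67 FPKM at D250 in a joined entry. SREBF1, the transcription factor of lipogenesis, had 16.4 FPKM at D90 against 23.7 at D250 (log2 ratio 0.53), short of 2-fold. MID1IP1, an activator of acetyl-CoA carboxylase, had 17.2 at D90 and 36.9 FPKM at D250 (log2 ratio 1.10).

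Among uptake genes, related isoforms went opposite ways. FABP3, the fatty acid binding protein of lactating mammary gland, had 164 FPKM at D90 against 1529 at D250 (log2 ratio 3.22). FABP4 and FABP5, the forms of adipocytes, macrophages and skin, had 317 to 132 and 456 to 144 FPKM from D90 to D250, with log2 ratios of -1.26 and -1.66. SLC27A6, a fatty acid transporter of mammary cells, had 0.0668 at D90 and 6.07 FPKM at D250 (log2 ratio 6.50). LPL, the lipoprotein lipase that frees fatty acids from blood lipids, was almost level, with 43.0 FPKM at D90 against 35.7 at D250. In all, 4 of 15 uptake and activation genes (26.7%) were higher and 5 (33.3%) lower, beside 21.3% and 6.22% of all genes. PNPLA2, the first lipase of triglyceride breakdown, had 4.20 at D90 and 13.4 FPKM at D250 (log2 ratio 1.67).

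In triglyceride assembly, 4 of 11 genes were higher and 2 lower, and 3 and 4 with the sum rescaled. GPAM, the acyltransferase that starts glycerolipid synthesis, had 1.06 FPKM at D90 against 14.1 at D250 (log2 ratio 3.73). AGPAT1, which adds the next fatty acid, had 57.5 at D90 and 131 FPKM at D250 (log2 ratio 1.19), and AGPAT2 had 8.37 FPKM at D90 against 4.88 at D250 (log2 ratio -0.78). LPIN2, a phosphatidate phosphatase, had 36.7 at D90 and 108 FPKM at D250 (log2 ratio 1.56), and LPIN3 had 1.70 FPKM at D90 against 0.832 at D250 (log2 ratio -1.03). DGAT1, the main enzyme of the last step in milk, had 17.8 at D90 and 24.7 FPKM at D250 (log2 ratio 0.47), while the entry that joins DGAT2 with UVRAG had 46.1 FPKM at D90 against 456 at D250, so that the reads of DGAT2 cannot be told apart from those of UVRAG. MOGAT1, a monoacylglycerol acyltransferase, had 2.29 at D90 and 0.669 FPKM at D250 (log2 ratio -1.77).

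Genes of the milk fat globule, the droplet wrapped in plasma membrane, were higher. Of 11 genes, 7 were 2-fold higher and none lower, with a median of 1.62. With the sum rescaled, 6 were higher and none lower. The mucins MUC1 and MUC15, which coat the apical membrane, had 2.48 to 57.8 and 0.592 to 12.8 FPKM from D90 to D250 (log2 ratios 4.54 and 4.44). XDH, xanthine oxidoreductase, which links the droplet to the membrane, had 205 FPKM at D90 against 986 at D250 (log2 ratio 2.26). MFGE8, lactadherin, had 24.1 at D90 and 113 FPKM at D250 (log2 ratio 2.22). PLIN2, the coat protein of the droplet itself, had 535 FPKM at D90 against 1051 at D250 (log2 ratio 0.97), and PLIN3 was level, with 29.0 at D90 and 28.4 FPKM at D250. PLIN2 is also used by macrophages, and the epithelial junction list beside these genes had a median of 1.99.

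Cholesterol synthesis genes differed little as deposited. Of 23 genes, none was 2-fold higher and 1 was lower, MVD, mevalonate decarboxylase, with 96.3 FPKM at D90 against 40.8 at D250 (log2 ratio -1.24). The median was -0.25, below that of all genes. With the sum rescaled, none was higher and 5 were lower, with a median of -0.74 beside -0.30 over all genes. HSD17B7 had the highest ratio of the list (0.92), and SREBF2, the factor that controls the pathway, had 53.5 at D90 and 62.5 FPKM at D250. Of 10 sterol export genes, 3 were higher and 1 was lower. ABCG2, the transporter that secretes riboflavin and drugs into milk, had 1.86 FPKM at D90 against 28.4 at D250 (log2 ratio 3.93), and the sterol and phospholipid transporters ABCG1 and ABCA7 had log2 ratios of 3.16 and 2.40. APOE, the lipoprotein made in quantity by macrophages, had 4414 at D90 and 639.9 FPKM at D250 (log2 ratio -2.79). It was the lower gene, but it was listed at 0 at D15 in Jersey cattle, so that no direction is read from it. In fatty acid oxidation, 4 of 25 genes were higher and 4 lower, and 3 and 9 with the sum rescaled. ACOX2 and BDH1, a peroxisomal oxidase and the ketone body enzyme, had log2 ratios of 4.45 and 3.01, from only 0.0836 and 0.448 FPKM at D90. PPARD, a nuclear receptor for fatty acids, had 39.1 FPKM at D90 against 172 at D250 (log2 ratio 2.14), and the mitochondrial entry CPT1B, joined with SYCE3, had 2.91 at D90 and 0.754 FPKM at D250 (log2 ratio -1.95).

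Lactose is made in the Golgi from glucose and UDP-galactose. Of the 15 genes with a ratio, 4 (26.7%) were 2-fold higher and 2 (13.3%) lower, beside 21.3% and 6.22% of all genes. Among the higher ones were UGP2, B4GALT1 and LALBA, the last with the limit given above. After rescaling of the sum, 4 were higher and 5 lower. B4GALT1, the catalytic part of lactose synthase, had 53.5 FPKM at D90 against 175 at D250 (log2 ratio 1.71), and UGP2, which makes UDP-glucose, had 91.3 at D90 and 307 FPKM at D250 (log2 ratio 1.75). The general hexokinases HK1 and HK2 and the myeloid form HK3 had log2 ratios of -0.75, 0.45 and 0.31, all short of 2-fold. SLC2A1, the main glucose transporter of the udder, had 81.7 FPKM at D90 against 111 at D250 (log2 ratio 0.44). The lower genes were PGM1 (28.0 FPKM at D90, 11.5 FPKM at D250, log2 ratio -1.28), which interconverts glucose phosphates, and GPI (674 FPKM at D90, 309 FPKM at D250, log2 ratio -1.13), which leads glucose 6-phosphate into glycolysis. Glycolysis had a median of 0.07, with 3 of 17 genes (17.6%) higher and 2 (11.8%) lower, and 2 and 4 with the sum rescaled. PKM and LDHA, its last steps, had 1105 to 1114 and 976 to 1002 FPKM from D90 to D250. PFKL, the liver form of phosphofructokinase, had 102 at D90 and 43.4 FPKM at D250 (log2 ratio -1.24), and PFKM, the muscle form, had 0.310 FPKM at D90 against 1.53 at D250 (log2 ratio 2.3). PFKFB4, which makes the activator of that enzyme, had 11.99 at D90 and 43.0 FPKM at D250 (log2 ratio 1.84).

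Of 22 amino acid transporters, 6 (27.3%) were higher, near the 21.3% of all genes, and none lower, but 3 were higher and 3 lower with the sum rescaled. SLC38A3, SLC7A4 and SLC1A1 had the largest log2 ratios, 5.42, 3.93 and 3.70, from levels under 1 FPKM at D90. SLC1A5, the glutamine carrier, had 134 FPKM at D90 against 273 at D250 (log2 ratio 1.03), and SLC38A2, which responds to amino acid shortage, had 34.1 at D90 and 78.0 FPKM at D250 (log2 ratio 1.2). SLC3A2, the shared heavy chain of several carriers, was level, with 80.0 FPKM at D90 against 78.9 at D250. Of 20 mineral transporters, 6 (30%) were higher and none lower, beside 21.3% and 6.22% of all genes. With the sum rescaled, 5 were higher and 2 lower. Of the 6, 3 had less than 1 FPKM at D90 and entered only through their level at D250. Of 17 with 1 FPKM on both days, 3 were higher and none lower, beside 17.1% and 5.12% of all such genes. SLC30A2, which loads zinc into secretory vesicles, had 0.174 at D90 and 5.64 FPKM at D250 (log2 ratio 5.02). ATP2C2, the calcium pump of the secretory pathway, had 0.796 FPKM at D90 against 12.1 at D250 (log2 ratio 3.92), and SLC34A2, an apical phosphate carrier, had 0.353 at D90 and 5.18 FPKM at D250 (log2 ratio 3.87). SLC40A1, ferroportin, which exports iron from macrophages and epithelia, had 10.1 FPKM at D90 against 51.9 at D250 (log2 ratio 2.36). SLC39A8, a zinc and manganese importer, had 55.7 at D90 and 110.0 FPKM at D250 (log2 ratio 0.98).

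Hormone signalling genes were higher at D250 as a list, in part through low levels at D90. Of 18 genes, 12 (66.7%) were 2-fold higher and none lower, with a median of 1.74. Of the higher genes, 6 had less than 1 FPKM at D90 and entered only through their level at D250. Of the 12 members that reached 1 FPKM on both days, 6 were higher and none lower, with a median of 1.09, beside 0.14 over all genes with that level. NFIB, which opens milk genes together with STAT5, had 0.294 FPKM at D90 against 6.77 at D250 (log2 ratio 4.53), and ESR1, the oestrogen receptor, had 0.135 at D90 and 2.63 FPKM at D250 (log2 ratio 4.28). STAT5A itself had 112 FPKM at D90 against 133 at D250 (log2 ratio 0.24). SOCS3, the feedback inhibitor of STAT3, had 110.1 at D90 and 874 FPKM at D250 (log2 ratio 2.99), and JAK2 had 19.0 FPKM at D90 against 85.4 at D250 (log2 ratio 2.17). The receptors PRLR and GHR did not reach 1 FPKM in either group. The list mixes epithelial genes with genes that leukocytes also use, and the epithelial and neutrophil lists beside it had medians of 1.99 and 1.22. The plot of selected genes in 6 groups shows the epithelial and fat genes lowest at D90 in both breeds.

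**Figure D3:**
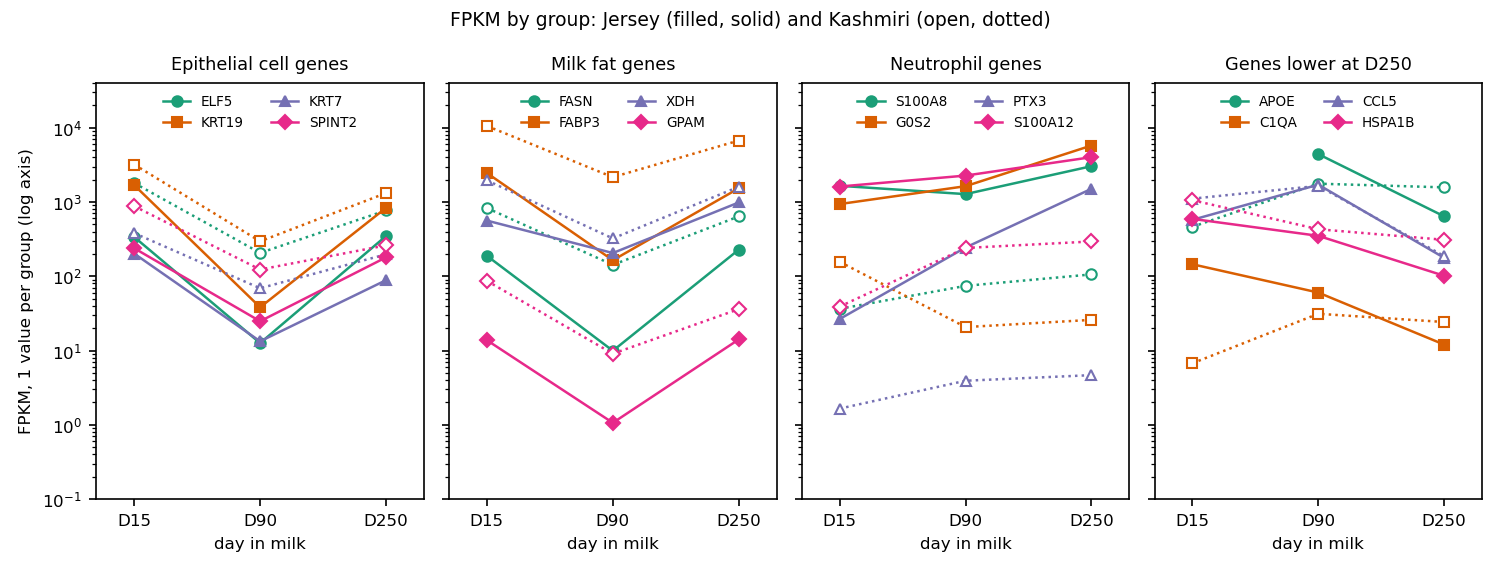
FPKM (log axis) of 16 genes at D15, D90 and D250, with 1 value per group and no error; filled symbols and solid lines are Jersey, open symbols and dotted lines Kashmiri cattle, and a value listed at 0 is not drawn. Epithelial and milk fat genes dip at D90 and were higher at D250, and the Jersey neutrophil genes were highest at D250. APOE, C1QA, CCL5 and HSPA1B had lower values at D250 than at D90 in Jersey cattle. Jersey APOE was listed at 0 at D15, so that no direction is read from it.

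Neutrophil genes were also higher at D250. Of 21 genes, 12 (57.1%) were 2-fold higher and 3 lower, with a median of 1.22. With the sum rescaled, 7 were higher and 3 lower. S100A8 and S100A12, the calcium-binding proteins that fill neutrophil cytosol, had 1276 to 3034 and 2267 to 4014 FPKM from D90 to D250. G0S2, an inhibitor of lipolysis abundant in granulocytes, had 1632 at D90 and 5758 FPKM at D250 (log2 ratio 1.82). PTX3, a soluble pattern receptor stored in granules, had 244 FPKM at D90 against 1506 at D250 (log2 ratio 2.63), and the entry that holds CSF3R, the receptor of granulocyte colony-stimulating factor, had 469 at D90 and 2549 FPKM at D250. The lower members encode granule enzymes. MMP9, a gelatinase, had 70.1 FPKM at D90 against 14.8 at D250 (log2 ratio -2.24). MPO, myeloperoxidase, had 2.80 at D90 and 0.572 FPKM at D250 (log2 ratio -2.29), and ELANE, neutrophil elastase, had 16.5 FPKM at D90 against 5.95 at D250 (log2 ratio -1.47). MPO and ELANE are transcribed in bone marrow precursors.

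Cytokine genes were higher far more often than lower, with 17 of 30 genes 2-fold higher and 1 lower (median 1.26). With the sum rescaled, 11 were higher and 3 lower. OSM, oncostatin M, had 142 at D90 and 1145 FPKM at D250 (log2 ratio 3.02). IL1B, the gene of the list with the highest FPKM in both groups, had 1905 FPKM at D90 against 3290.1 at D250 (log2 ratio 0.79). The receptors IL1R1 and CSF2RB had 13.6 to 131 and 53.9 to 457 FPKM from D90 to D250 (log2 ratios 3.27 and 3.08), and TNFRSF1B, a receptor of tumour necrosis factor, had 396 at D90 and 1331 FPKM at D250 (log2 ratio 1.75). IL18, a cytokine activated by the inflammasome, had 15.1 FPKM at D90 against 132 at D250 (log2 ratio 3.13). Chemokines went both ways, with 6 of 27 genes (22.2%) higher and 6 (22.2%) lower, beside 21.3% and 6.22% of all genes. With the sum rescaled, 5 were higher and 10 lower. CCL14 had the highest level, 7509 at D90 and 10502 FPKM at D250, and differed by less than 2-fold. CCL28, which epithelial cells secrete to draw antibody-forming cells to mucosa, had 0.638 FPKM at D90 against 10.8 at D250 (log2 ratio 4.09). CXCL12 had the largest ratio (7.10) but only 0.0202 FPKM at D90. On the lower side stood CCL5, made by T cells and macrophages, with 1710.5 at D90 and 177 FPKM at D250 (log2 ratio -3.27). CCL2, the monocyte attractant, had 1550.5 FPKM at D90 against 777 at D250, just short of 2-fold.

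In Toll-like receptor and NF-kB signalling, 10 of 39 genes (25.6%) were higher and 1 (2.56%) was lower, shares near the 21.3% and 6.22% of all genes, and 3 and 2 with the sum rescaled. MYD88, the shared adaptor of these receptors, had 214 at D90 and 969 FPKM at D250 (log2 ratio 2.18). TANK, a binding partner of TRAF proteins, had 96.9 FPKM at D90 against 361 at D250 (log2 ratio 1.90), and TAB2, which links them to the kinase TAK1, had 22.9 at D90 and 73.1 FPKM at D250 (log2 ratio 1.67). NFKBIA, the inhibitor that NF-kB itself induces, was high and nearly level, with 4932 FPKM at D90 against 3889.8 at D250. Of 25 AP-1 and immediate early genes, 10 were higher and none lower, and 7 and 2 with the sum rescaled. FOS, a subunit of AP-1, had 542 at D90 and 2332 FPKM at D250 (log2 ratio 2.11), and EGR1, a zinc finger factor, had 50.1 FPKM at D90 against 369 at D250 (log2 ratio 2.88). DUSP1 and DUSP6, phosphatases that end MAP kinase signals, had log2 ratios of 2.32 and 1.89. The antimicrobial list had 9 of 15 genes higher and none lower, with a median of 1.41, and 5 and none with the sum rescaled (median 0.93). LPO, lactoperoxidase of milk, had 1.61 at D90 and 39.5 FPKM at D250 (log2 ratio 4.62). PIGR, which carries IgA across the epithelium, had 4.76 FPKM at D90 against 67.3 at D250 (log2 ratio 3.82), and C3, the central complement protein, had 41.4 at D90 and 270.3 FPKM at D250 (log2 ratio 2.71). In the same groups S100A9 had 994 FPKM at D90 against 2965 at D250, and the neutrophil list had a median of 1.22.

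Eicosanoid genes went both ways, with 5 of 17 higher and 3 lower. TBXAS1, thromboxane synthase, had 18.8 at D90 and 122 FPKM at D250 (log2 ratio 2.70). ALOX15, a lipoxygenase, had 0.667 FPKM at D90 against 4.63 at D250 (log2 ratio 2.80) and HPGD, which degrades prostaglandins, had 0.531 at D90 and 2.84 FPKM at D250 (log2 ratio 2.42). LTC4S, which makes leukotriene C4, had 4.38 FPKM at D90 against 0.239 at D250 (log2 ratio -4.19). Among oxidative burst and antioxidant genes, 2 of 26 were higher and 6 lower, with a median of -0.37, and 1 and 9 with the sum rescaled. NCF4, a cytosolic part of NADPH oxidase, had 141 at D90 and 452 FPKM at D250 (log2 ratio 1.68), while NCF1, its partner, had 971 FPKM at D90 against 1002 at D250. PRDX1, a peroxiredoxin, had 1211 at D90 and 473 FPKM at D250 (log2 ratio -1.36), and GCLM, the modifier of glutathione synthesis, had 3.19 FPKM at D90 against 1.43 at D250 (log2 ratio -1.16).

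Macrophage and dendritic cell genes were lower more often than higher. Of 24 genes, 9 (37.5%) were 2-fold lower and 2 higher, with a median of -0.29. The higher members were joined entries, ADGRE1 with VAV1 and XCR1 with an Ensembl identifier. The 3 chains of complement C1q, a product of tissue macrophages, were lower together, with 60.3 to 12.01 FPKM for C1QA, 55.9 to 10.4 for C1QB and 42.9 to 6.80 for C1QC from D90 to D250. APOE, which is no member of this list, had a 6.90-fold lower value, but no direction is read from it, since it was listed at 0 at D15. CCR7, which guides mature dendritic cells to lymph nodes, had 114 at D90 and 21.8 FPKM at D250 (log2 ratio -2.39), and FSCN1, an actin-bundling protein of the same cells and no member either, had 60.4 FPKM at D90 against 11.9 at D250 (log2 ratio -2.34). GPNMB, a lysosomal glycoprotein of lipid-laden macrophages, had 231 at D90 and 59.7 FPKM at D250 (log2 ratio -1.95). Other members had higher values at D250, short of 2-fold. CD14, the lipopolysaccharide co-receptor of monocytes and macrophages, had 536 FPKM at D90 against 636 at D250, and CD163, the haemoglobin scavenger receptor, had 37.1 at D90 and 57.7 FPKM at D250. LYZ, lysozyme, had 271 FPKM at D90 against 462 at D250, BATF3, a factor of dendritic cells, had 475 at D90 and 858 FPKM at D250, and AIF1, a calcium-binding protein of macrophages, had 76.8 FPKM at D90 against 137 at D250. CD68, the general macrophage marker, had 1211 at D90 and 996 FPKM at D250, a difference of far less than 2-fold, and the summed level of the list was no lower at D250.

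The other genes with the lowest ratios have varied roles. TTR, which carries thyroid hormone and, with its partner, retinol, was 14.1-fold lower, with 58.1 FPKM at D90 against 4.12 at D250. CH25H, cholesterol 25-hydroxylase of activated macrophages, had 19.2 at D90 and 1.44 FPKM at D250 (log2 ratio -3.74), and CLEC4E, a receptor for mycobacterial lipid on macrophages, had 86.9 FPKM at D90 against 13.4 at D250 (log2 ratio -2.69). EBI3, a subunit of interleukin 27, had 33.7 at D90 and 5.39 FPKM at D250 (log2 ratio -2.64). RARRES1, a gene induced by retinoic acid, had 41.9 FPKM at D90 against 5.46 at D250 (log2 ratio -2.94), SMPD3, a sphingomyelinase, had 7.59 at D90 and 1.09 FPKM at D250 (log2 ratio -2.81), and FADS6, of the desaturase family, had 39.3 FPKM at D90 against 6.83 at D250 (log2 ratio -2.53). CTSB, the lysosomal protease cathepsin B, was among the 10 highest names at D90 and had 4479 at D90 and 2019 FPKM at D250 (log2 ratio -1.15).

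Lymphocyte genes had medians below that of all genes. Of 28 T and NK cell genes, 4 were higher and 4 lower (median -0.21), and 3 and 8 with the sum rescaled (median -0.70). NKG7, of cytotoxic granules, had 71.0 FPKM at D90 against 22.9 at D250 (log2 ratio -1.63). The higher members included NCR1, an NK cell receptor (6.76 FPKM at D90, 56.3 FPKM at D250, log2 ratio 3.06), and IL2RA, the interleukin 2 receptor that activated cells of several types carry (25.8 FPKM at D90, 133 FPKM at D250, log2 ratio 2.37). CD69, an activation marker, had 326 at D90 and 749 FPKM at D250 (log2 ratio 1.2). None of 12 B cell genes was 2-fold higher and 4 were lower, with a median of -0.75. Of the lower genes, 3 had less than 1 FPKM at D250 and entered only through their level at D90. Of the 7 members that reached 1 FPKM on both days, 1 was lower, with a median of -0.62. Over all such genes 5.12% were lower and the median was 0.14. CR2, complement receptor 2, had 3.799 FPKM at D90 against 0.946 at D250 (log2 ratio -2.01), and IRF4, a factor of plasma cells, had 7.69 at D90 and 3.14 FPKM at D250 (log2 ratio -1.29). Genes of antigen presentation kept high levels in both groups. B2M, the light chain of MHC class I, was the highest symbol at D90 and had 10721 FPKM at D90 against 14358 at D250. Of 16 class I genes, 4 were higher, a share near the 21.3% of all genes, and none lower, and 2 and 1 with the sum rescaled. NLRC5, the class I transactivator, was among the higher ones (22.6 FPKM at D90, 52.7 FPKM at D250, log2 ratio 1.22). CD74, the class II chaperone, had 3391 at D90 and 3165 FPKM at D250, and BOLA-DRB3, a class II beta chain, had 482 FPKM at D90 against 518 at D250, and none of the 3 class II genes found passed 2-fold. Of 4 platelet and endothelial genes with a ratio, 2 were higher and 2 lower. Both of 2 fibroblast and adipocyte genes were higher, but they had less than 1 FPKM at D90 and entered only through their level at D250.

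Interferon response genes went both ways, with 10 of 31 higher and 7 lower. Among the lower ones, ISG15, a ubiquitin-like protein, had 1373 at D90 and 549.6 FPKM at D250 (log2 ratio -1.32). Mx1, a GTPase that blocks influenza virus, had 77.7 FPKM at D90 against 18.8 at D250 (log2 ratio -2.05), and IFI6, an inhibitor of cell death, had 94.96 at D90 and 22.7 FPKM at D250 (log2 ratio -2.07). Among the higher ones were SAMD9, an antiviral factor (15.96 FPKM at D90, 68.2 FPKM at D250, log2 ratio 2.10), IFIH1, a sensor of double-stranded RNA (24.2 FPKM at D90, 82.2 FPKM at D250, log2 ratio 1.77), and ISG20, an exonuclease (374 FPKM at D90, 1029 FPKM at D250, log2 ratio 1.46). With the sum rescaled the list had 4 genes higher and 12 lower.

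Of 22 cytosolic heat shock genes, 8 (36.4%) were 2-fold lower at D250, 2 were higher and 12 stayed within 2-fold, with a median of -0.43. D250 was sampled in December and D90 in July, and season and day in milk cannot be told apart. HSPA1B, the heat-induced chaperone, had 350.2 FPKM at D90 against 101 at D250 (log2 ratio -1.79), a value that is uncertain because the gene has a near-identical copy. HSPA8, its constitutive relative, had 1047 at D90 and 467 FPKM at D250 (log2 ratio -1.17). HSPH1, a partner that exchanges its nucleotide, had 26.3 FPKM at D90 against 8.68 at D250 (log2 ratio -1.60), and HSPB1, a small heat shock protein, had 603 at D90 and 249 FPKM at D250 (log2 ratio -1.28). HSP90AA1 was nearly level, with 472 FPKM at D90 against 592 at D250. The small heat shock genes CRYAB and HSPB6 were higher, with log2 ratios of 2.12 and 2.89. In the unfolded protein response, 2 of 24 genes were higher and 3 lower, and 1 and 10 with the sum rescaled. The lower ones were chaperones of the endoplasmic reticulum, SDF2L1 (74.9 FPKM at D90, 23.1 FPKM at D250, log2 ratio -1.70), PDIA4 (86.9 FPKM at D90, 36.4 FPKM at D250, log2 ratio -1.26) and HSP90B1 (297 FPKM at D90, 143 FPKM at D250, log2 ratio -1.05). EDEM1, which sends misfolded glycoproteins to degradation, had 65.5 at D90 and 189.7 FPKM at D250 (log2 ratio 1.53).

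The genes linked with involution, the regression of the gland when milk is no longer removed, gave no common direction. Of 21, 7 were higher and 5 lower, and 5 and 8 with the sum rescaled. STAT3, which drives the first phase, had 68.8 FPKM at D90 against 300.1 at D250 (log2 ratio 2.13). PLAUR and PLAU, the receptor and the enzyme urokinase, had 1237 to 4002 and 807 to 1921 FPKM from D90 to D250, and TIMP1, an inhibitor of matrix proteases, had 185 at D90 and 835 FPKM at D250 (log2 ratio 2.17). CTSB, which acts in lysosomal cell death, was lower. Among 27 regulators of cell death, 6 (22.2%) were higher and 1 (3.70%) was lower, near the shares of all genes, and 1 and 3 with the sum rescaled. BCL2L1, which protects cells, had 30.2 FPKM at D90 against 70.8 at D250 (log2 ratio 1.23). Of 31 cell cycle genes, 1 was higher and 5 were lower, and 0 and 11 with the sum rescaled. AURKA, a mitotic kinase, had 2.81 at D90 and 1.32 FPKM at D250. Of 14 clock genes, 6 were higher and none lower, and 4 and 1 with the sum rescaled. Of the 6, 3 had less than 1 FPKM at D90 and entered only through their level at D250. NFIL3 and BHLHE40, repressors of the clock that are also induced in leukocytes, had 240.1 to 1149 and 151 to 723 FPKM from D90 to D250, and HLF, a factor that the clock drives, had 0.404 FPKM at D90 against 4.74 at D250 (log2 ratio 3.55). Of 5 genes of tryptophan breakdown, 1 was higher and 1 lower. KMO, kynurenine monooxygenase, had 24.8 at D90 and 97.3 FPKM at D250 (log2 ratio 1.97) and HAAO, a later step, had 7.99 FPKM at D90 against 1.56 at D250 (log2 ratio -2.36).

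The machinery shared by every cell was nearly level. Of 43 cytosolic ribosomal protein genes, none was 2-fold higher or lower, and their log2 ratios ran from -0.48 to 0.81 with a median of 0.15. RPLP1, the highest of them at D250, had 3007 at D90 and 3775 FPKM at D250. Many have processed copies in the genome, which makes single values uncertain. None of 69 mitochondrial ribosomal protein genes passed 2-fold either, with a median of -0.32. The 56 nuclear genes of the respiratory chain had a median of -0.27, with 2 higher and 2 lower. With the sum rescaled, 17 mitochondrial ribosomal and 13 respiratory chain genes were lower. The 35 proteasome genes had a median of -0.18, with PSMA3 (64.0 FPKM at D90, 164 FPKM at D250, log2 ratio 1.35) as the single gene past 2-fold. The 51 translation factors had a median of 0.18, with 5 higher and 1 lower. The median gene span of the ribosomal and respiratory chain lists lies in the class of shortest span, whose median log2 ratio was -0.12. RAB GTPases, which direct vesicles, differed more, with 14 of 40 (35%) higher and 2 (5%) lower, and 8 and 2 with the sum rescaled. Over all genes, 21.3% were higher and 6.22% lower. Of the 14, 5 had less than 1 FPKM at D90 and entered only through their level at D250. Of 34 with 1 FPKM on both days, 9 were higher and 1 was lower, beside 17.1% and 5.12% of all such genes. RAB25, RAB17 and RAB13, of polarised epithelia, had log2 ratios of 3.39, 3.50 and 3.84, from 1.86, 0.381 and 0.727 FPKM at D90. Of 26 glycosyltransferases, 7 (26.9%) were higher and 5 (19.2%) lower, and 5 and 8 with the sum rescaled. ST3GAL3, a sialyltransferase, had 18.0 FPKM at D90 against 90.5 at D250 (log2 ratio 2.33).

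**Figure D4:**
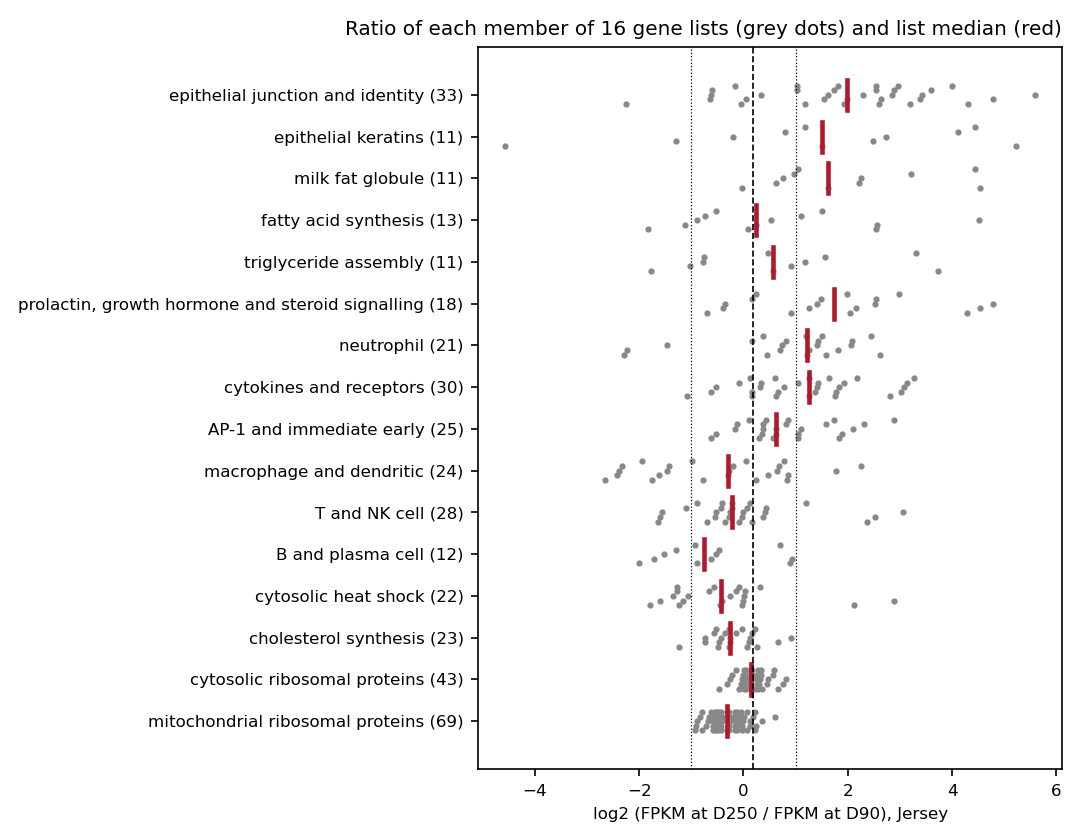
Log2 ratio of FPKM (D250 over D90, Jersey) of every member with a ratio in 16 gene lists (grey dots, number in brackets) with the list median (red bar); dotted lines mark 2-fold and the dashed line the median of all genes, 0.18. Epithelial lists have medians of 1.99 and 1.5, and both ribosomal lists stay within 2-fold. B and plasma cell genes have the lowest median as drawn, -0.75, which was -0.62 over the 7 members with 1 FPKM on both days.

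The same days were compared in Kashmiri cattle, which share no samples with the Jersey groups. Of 11379 genes, 1688 (14.8%) were at least 2-fold higher and 1296 (11.4%) lower, and the median log2 ratio was 0.04. Over the 10317 genes with a ratio in both breeds, Pearson's r of the log2 ratios was 0.37 across genes, which are not independent replicates. Genes 2-fold higher in both breeds numbered 701, which was 34.4% of the 2038 in Jersey and 52.3% of the 1340 in Kashmiri cattle. Genes lower in both numbered 136, which was 23.0% of 591 and 13.8% of 988. Over all of these genes, 13.0% were 2-fold higher and 9.58% lower in Kashmiri cattle. The difference between the breeds was not tested, since neither had a spread. Lactation number also differed between the days in another way in each breed. From D90 to D250 the labels went from lactations 2 and 3 to lactation 2 in Jersey cattle. In Kashmiri cattle they went from lactation 2 to lactations 2 and 3.

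The epithelial lists had high medians in both breeds. Junction and identity genes had 1.99 in Jersey and 2.16 in Kashmiri cattle, where 39 of 43 were 2-fold higher, and keratins had 1.5 and 1.09. FASN had 142 to 639 FPKM and ELF5 206 to 770.3 FPKM from D90 to D250 in Kashmiri cattle, log2 ratios of 2.17 and 1.90 against 4.52 and 4.79. Several leukocyte lists had medians further apart, by an amount that depended on the scaling. Rescaled to the same sum without the milk protein genes, every Kashmiri log2 ratio was higher by 0.65, while every Jersey ratio was lower by 0.48, and the Kashmiri median over all genes became 0.69. T and NK cell genes had a median of -1.72 in Kashmiri cattle, with 28 of 33 lower, against -0.21 in Jersey cattle. With both breeds rescaled these medians were -1.07 and -0.70, and 19 Kashmiri genes were lower. Neutrophil genes had 0.32 and cytokine genes -0.18 in Kashmiri cattle, against 1.22 and 1.26 in Jersey cattle. With both breeds rescaled, the order of the neutrophil medians turned round, with 0.97 in Kashmiri and 0.74 in Jersey cattle. The cytokine medians were then 0.47 in Kashmiri and 0.78 in Jersey cattle. AP-1 genes had -0.65 and cytosolic ribosomal protein genes -1.13, the latter with 31 of 44 lower. With both breeds rescaled, AP-1 genes had medians of 0.15 in Jersey and -0.0016 in Kashmiri cattle, and cytosolic ribosomal protein genes had -0.33 and -0.49, with no Kashmiri member 2-fold lower. CCL5 was lower in both breeds, with log2 ratios of -3.27 and -3.14.

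**Figure D5:**
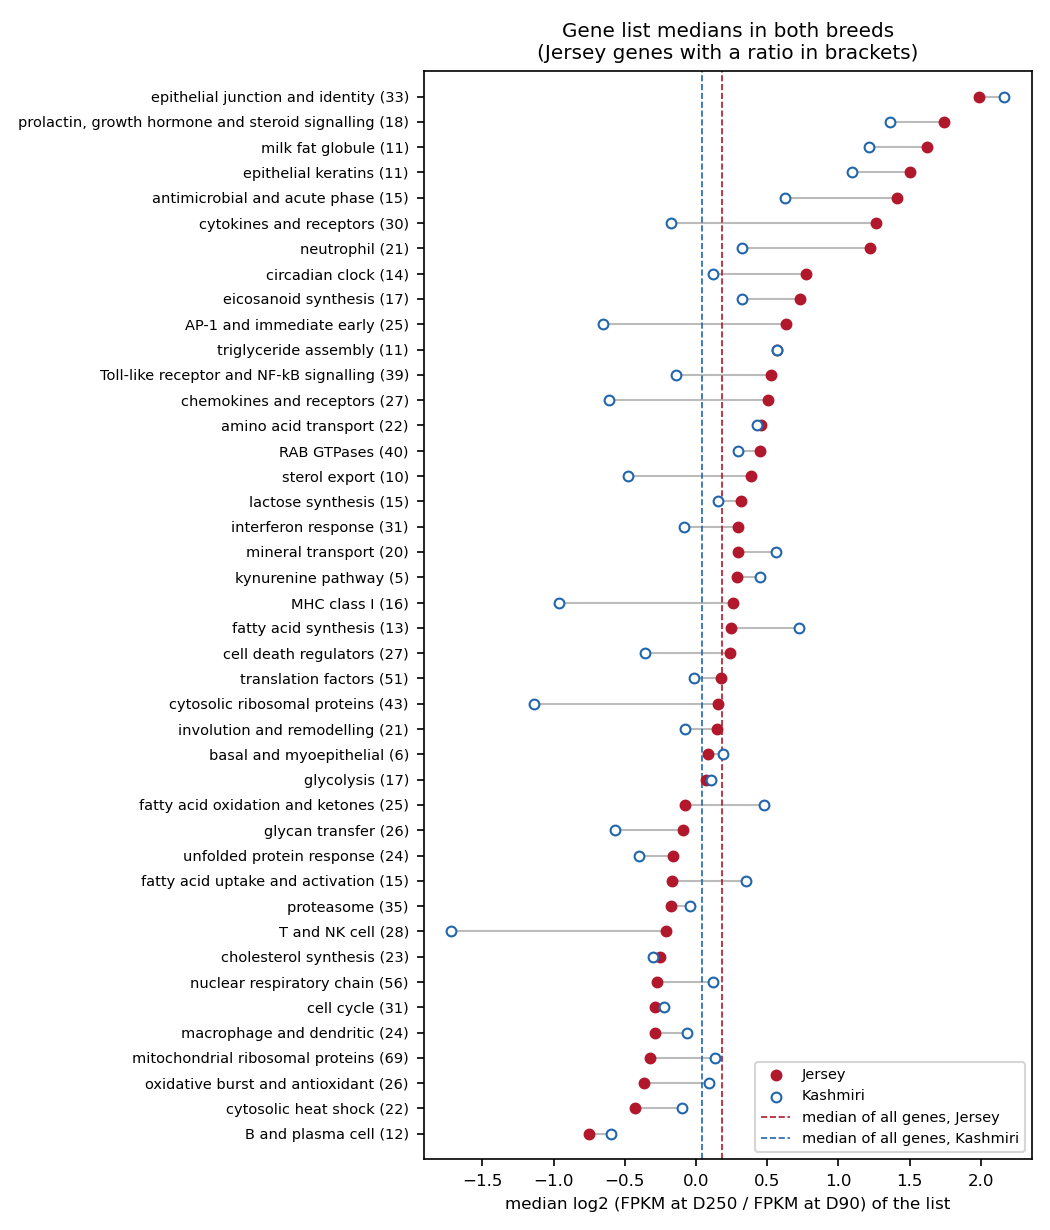
Median log2 ratio (D250 over D90) of each gene list with at least 5 Jersey genes, in Jersey (red) and Kashmiri (open blue) cattle, with the number of Jersey genes in brackets and dashed lines at the medians of all genes, 0.18 and 0.04. The upper 4 lists lie above 1 in both breeds, while T and NK cell genes lie at -0.21 and -1.72, values as deposited that were -0.70 and -1.07 with both breeds rescaled to the same sum.

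Some of the highest values carried no symbol. ENSBTAG00000013417 had 361 at D90 and 23316 FPKM at D250, the highest level of all names at D250, and ENSBTAG00000005005 had 328 FPKM at D90 against 7411 at D250. In Kashmiri cattle the former was listed at 0 at D250 and the latter at 0 at D15 and D250, so that no direction is read from either. ENSBTAG00000013343, with a value above 0 in all 6 groups, had 5529 at D90 and 1569 FPKM at D250. In all, 1326 Ensembl identifiers without a symbol and 588 joined names had a ratio. The entry that holds ND2 of mitochondrial DNA had 2048 FPKM at D90 against 2421 at D250, while the entry that joins ND5 with other mitochondrial genes was listed at 0 at D90 and had 11397 FPKM at D250, so that mitochondrial RNA gave no direction.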

How the data were processed

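Cells captured as epithelial cells from the milk of Jersey and Kashmiri cattle at D15, D90 and D250 were studied by RNA sequencing (17 samples). The authors deposited 1 FPKM value per group of breed and day for 61264 entries. According to the methods and the submitters' processing notes, reads were trimmed with Trimmomatic, mapped to the bovine build UMD3.1 with Bowtie2 and TopHat, and reads mapped to several places were discarded before Cufflinks and Cuffdiff, so that near-identical genes are uncertain. Where a name had several entries, the one with the largest mean over the 6 groups was taken, and entries of several joined names were kept as 1 gene. The log2 ratio of D250 over D90 was taken without a pseudocount where either group had at least 1 FPKM and neither was 0, and at least 2-fold was counted. No column of values was left unused (0). The depth behind each value is unknown. The calculations were run in Python 3.11.15 with pandas 2.3.3 and numpy 2.4.6, figures were drawn with matplotlib 3.10.9, and the counting was tested on simulated data.

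The genes compared and the 48 gene lists were chosen with earlier results of these data known. Genes were named by rule: the 12 symbols with the highest and the 12 with the lowest ratio that reached 1 FPKM on both days, the same for 10 each with at least 50 FPKM in the higher group, the 10 names with the highest FPKM in each group, up to 4 members of each list by ratio and 3 by level, all members of 5 milk lists, the genes the study used to check purity or to normalise, and names at 0 in one group and above 500 FPKM in the other. CLDN1, ELANE, GPNMB, JAK2, LPL, PRLR, GHR, CD14, CD163, LYZ, BATF3 and AIF1 were named after their values were seen. The alternatives were pseudocounts of 1 and 0.1 FPKM, other minimum levels, summing the entries of a name, rescaling to the same sum or the same upper quartile, and a 4-fold limit. Leaving out joined names, setting a gene against its class of gene span (5 classes), rescaling the Kashmiri values and counting list members with at least 1 FPKM in both groups were added after seeing the data. No genome was used here, and gene spans were matched by symbol to RefSeq. Some genes are not reported here.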

Additional observations from a re-analysis of the deposited data

Results flagged for a closer look

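In 15 named genes the ratio of D250 over D90 was at least 2-fold in opposite directions in the 2 breeds. The difference between the breeds was not tested, since each rests on 1 value per group. Breed also cannot be told apart here from lactation number, which differed between the days in another way in each breed. With both breeds rescaled to the same sum without milk protein genes, Jersey log2 ratios fell by 0.48 and Kashmiri ratios rose by 0.65. All 15 kept opposite signs, which such shifts could not change. Only 5 were still 2-fold in both breeds, so that the other 10 depended on the scaling. For CR2, FADS3, LPIN3 and SMPD3, lower in Jersey and higher in Kashmiri cattle, the shifts could only widen the difference. ST3GAL3 alone could have dropped out and did not, with 1.84 in Jersey and -1.12 in Kashmiri cattle. Most of the 15 were higher in Jersey and lower in Kashmiri cattle. Among cytokine and immune genes, CXCL12 had log2 ratios of 7.10 in Jersey and -1.07 in Kashmiri cattle, IL18 had 3.13 and -1.14, TNFRSF1B had 1.75 and -1.48, and CD69 had 1.2 and -1.37. FOS had 2.11 and -1.34, ISG20 had 1.46 and -1.62, and TAPBPL, a relative of the class I chaperone tapasin, had 1.15 and -1.2. Among lipid genes, ABCG1 had 3.16 and -1.47, ABCA7 had 2.40 and -1.44, and MID1IP1 had 1.10 and -1.11. The sialyltransferase ST3GAL3 had 2.33 and -1.76. The remaining genes were lower in Jersey and higher in Kashmiri cattle. SMPD3 had -2.81 and 1.36, CR2 had -2.01 and 1.5, FADS3 had -1.11 and 1.27, and LPIN3 had -1.03 and 1.11. Of the 10317 genes with a ratio in both breeds, 153 were 2-fold higher in Jersey and lower in Kashmiri cattle and 59 the other way round. These are 153 of 2038 genes higher and 59 of 591 lower in Jersey cattle. Over all 10317, 9.58% were lower and 13.0% higher in Kashmiri cattle, so that no excess of opposite genes is read from these counts.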

How the results depend on the processing

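The counts of genes depended on the scaling and on the minimum level, while the order of the genes did not change with either rescaling, which lowers every log2 ratio by the same amount. Instead of 2318 higher and 678 lower genes, the same sum without milk protein genes gave 1368 and 1836, the same upper quartile 1664 and 1234, and no minimum FPKM 3570 and 1317. The median log2 ratio of 0.18 became -0.30 with the same sum and -0.12 with the same upper quartile. A 4-fold limit gave 826 and 95, at least 5 FPKM left 409 lower genes, and setting each gene against its class of gene span gave 1304 higher genes of 8238 matched. Of the genes past 2-fold, 77.4% were higher as deposited, 42.7% with the same sum, 57.4% with the same upper quartile and 64.8% against the class of gene span. List medians changed sign in 17 of 47 lists with the same sum and in 13 of 47 with the same upper quartile. The 9 lists with a median of at least 1 could not change sign, since every log2 ratio was lowered by only 0.48 or 0.30. The milk protein list, with LALBA alone at 4.11, had a median of -9.89 with a pseudocount of 1 FPKM and -13.2 with 0.1 FPKM, since genes listed at 0 at D250 then enter. No paired analysis was possible because each group has 1 value, and leaving out a replicate could not be run for the same reason. The unknown depth limits every gene at a low level, and genes near 1 FPKM carry the least support.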

Other observations

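Some of the most abundant and the most different genes belong to no list above. TMSB10, a thymosin that binds actin monomers, was among the 10 highest names at D90 and had 6151 at D90 and 3683 FPKM at D250, log2 ratios of -0.74 in Jersey and -1.0 in Kashmiri cattle. TUBB6, a beta-tubulin, had 50.6 FPKM at D90 against 9.78 at D250, log2 ratios of -2.37 and -0.11 in the 2 breeds. VGF, a secreted neuropeptide precursor, had 11.5 at D90 and 1.73 FPKM at D250, with log2 ratios of -2.73 and -0.94. TGM3, a transglutaminase, was listed at 0 at D250 after 818 FPKM at D90.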
